A study of Homo sapiens with 12 samples.

Results

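The 10 genes described here encode retinoid enzymes, a retinoid binding protein, retinoid receptors and genes known to respond to retinoic acid: RDH10, DHRS3, ALDH1A3, CRABP2, RARA, RARB, RARG, RXRA, RARRES1 and TGM2. They were chosen by name, with earlier results of the same libraries known, and 10 of 10 were found among the 58735 genes of the count table. Because values of these groups were known when the genes were picked, their levels and fold changes are a description, given without p-values. RARRES1 had too few reads to enter the fit, so 9 members were fitted and 10 are described.

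RNA came from cancer tissue of GFP-labelled MDA-MB-231, a triple-negative human breast cancer line, in fibrin gel in a perfused plate (AngioPlate), 5 days after seeding of the cancer cells. In hepatic co-culture the neighbouring tissue was HepG2, a liver cancer line, plus lung fibroblasts at 2%. In the cardiac co-culture it was iPSC-derived cardiomyocytes, from reprogrammed human cells, plus cardiac fibroblasts at 2%. In monoculture the cancer tissue had no partner tissue. Each of the 3 groups had 4 libraries, labelled as biological replicates of 1 cancer line, and nothing says which seedings they came from, so the spread between libraries may be partly technical. The cancer tissue was lysed whole, without a sort for GFP, so RNA of any cell that had entered it would be counted.

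Retinol is taken up, oxidised reversibly to retinaldehyde and then irreversibly to retinoic acid, which is carried to the nucleus, binds receptors of the RAR family paired with RXR receptors, and is cleared by CYP26 enzymes. RDH10 oxidises retinol to retinaldehyde, DHRS3 reduces retinaldehyde back to retinol, ALDH1A3 makes retinoic acid and CRABP2 delivers it to the receptors. RARB, DHRS3, CRABP2, RARRES1, TGM2 and the CYP26 genes are widely used as readouts of retinoic acid, and many breast cancer lines have little RARB.

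Receptor pairs bind direct repeats of a 6-letter half-site, so the promoters were searched on both strands for 4 half-sites: AGGTCA as consensus, then AGTTCA as well as GGGTCA and finally GGTTCA. Direct repeats of them were searched with 1, 2 or 5 bases between, and a repeat also counts as 2 half-sites. RefSeq promoters on GRCh38.p14, from 250 bases before to 50 bases after the start site, were matched for 8 of the 10 genes, which had 16 promoters. A half-site was present in 8 of the 16, against 38.6% of the 35116 promoters of the table. A direct repeat was present in 1 of the 16, a promoter of RARB, against 0.259% of all promoters, or 0.0883% for the spacing of 5 bases found there. The 3 sequences below are shown because they set the known retinoic acid element of RARB beside a promoter of the enzyme and of the binding protein with the highest hepatic fold changes among the genes. They run 5′ to 3′ on the gene's strand, with matches in capitals, at chr3:25428013-25428312 on the plus strand for RARB, chr1:12616740-12617039 on the minus strand for DHRS3 and chr1:156705735-156706034 on the minus strand for CRABP2.
RARB promoter: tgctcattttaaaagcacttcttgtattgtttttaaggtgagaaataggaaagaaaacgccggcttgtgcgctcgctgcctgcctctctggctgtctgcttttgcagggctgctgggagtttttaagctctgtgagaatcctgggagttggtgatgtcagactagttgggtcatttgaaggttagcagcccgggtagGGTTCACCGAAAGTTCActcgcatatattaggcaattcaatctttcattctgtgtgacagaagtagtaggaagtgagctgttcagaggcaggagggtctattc
DHRS3 promoter: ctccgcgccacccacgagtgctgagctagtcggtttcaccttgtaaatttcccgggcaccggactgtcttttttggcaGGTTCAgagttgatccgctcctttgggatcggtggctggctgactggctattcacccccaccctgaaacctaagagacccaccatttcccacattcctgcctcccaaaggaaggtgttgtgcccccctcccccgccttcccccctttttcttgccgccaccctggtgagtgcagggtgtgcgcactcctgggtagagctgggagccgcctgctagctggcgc
CRABP2 promoter: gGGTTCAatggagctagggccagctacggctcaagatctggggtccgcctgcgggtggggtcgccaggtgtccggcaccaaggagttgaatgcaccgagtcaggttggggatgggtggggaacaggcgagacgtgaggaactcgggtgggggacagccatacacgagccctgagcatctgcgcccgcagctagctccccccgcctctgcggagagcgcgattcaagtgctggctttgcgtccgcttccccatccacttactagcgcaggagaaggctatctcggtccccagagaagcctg
The capitals mark the direct repeat with the bases between its half-sites at bases -53 to -37 of RARB, and single half-sites at -172 to -167 of DHRS3 and at -249 to -244 of CRABP2. A further single half-site of RARB, at -83 to -78, is left in lower case. Of the DHRS3 promoters not printed, the one at chr1:12618161-12618460 held 0 half-sites. The one at chr1:12596564-12596863 held 1, on the strand opposite to the gene at -171 to -166. A match to these letters is a description of the sequence, not evidence of a bound site.

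Total counts were 26.2 to 42.4 M (1e6) per library in hepatic co-culture, 27.0 to 37.4 M in cardiac co-culture and 35.0 to 42.0 M in monoculture. Levels are counts per 1e6 after TMM scaling (CPM), given as mean ± SD over 4 libraries. Fold changes are log2 values ± SE from 1 edgeR fit over the 12 libraries, in which a gene passed at an adjusted p under 0.05 over 17468 genes. Cardiac replicate 4 stood apart. Principal component 1, which held 28.5% of the variance, placed it at -24.9, the other cardiac libraries at 6.79 to 16.3, the hepatic libraries at 24.5 to 46.8 and the monoculture libraries at -51.1 to -22.3. Fold changes that involve cardiac libraries are therefore mostly also given without it.

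All 10 markers fixed for MDA-MB-231 cells were detected in each group, and their summed level was 4325 to 4999 CPM in hepatic, 4043 to 4403 CPM in cardiac and 3971 to 4353 CPM in monoculture libraries. Of these 10, 4 were higher and 3 lower without overlap in hepatic than in monoculture libraries. In cardiac against monoculture libraries 1 was higher and 3 were lower without overlap. The 12 hepatocyte markers summed to 35.1 to 58.5, 69.8 to 96.0 and 42.0 to 74.5 CPM in the same order, of which SERPINA1, also expressed by this cancer line in monoculture, made up nearly all. ALB had at most 14 counts in any library and APOA2 had none. The 13 cardiomyocyte markers summed to 0.78 to 2.10, 1.28 to 4.45 and 2.30 to 3.35 CPM, and MYH6, a cardiac myosin, was seen in cardiac replicate 4 alone, with 21 counts. Fibroblast markers (12 genes, with POSTN, DPT and THY1 at 0 in every group) summed to 12.1 to 24.8, 15.5 to 18.2 and 15.8 to 22.9 CPM, and 7 endothelial markers to 18.3 to 27.9, 15.5 to 18.6 and 11.6 to 19.0 CPM. Of 15 comparisons of these sums by two-sided exact permutation tests, the smallest p was 0.0286, the lowest that 4 against 4 libraries allow. At least 9 of the 15 would have to reach it for an adjusted p under 0.05, so the smallest adjusted p of 0.214 is largely set by the design. Single markers did separate groups whose sums overlapped. TIE1, an endothelial receptor, was 2.31 to 3.97 CPM in hepatic, 1.71 to 2.38 CPM in cardiac and 0.069 to 0.53 CPM in monoculture libraries, and VWF, the endothelial clotting factor carrier, was 1.76 to 3.70, 0.50 to 2.87 and 0.48 to 0.79 CPM. Of the 7 endothelial markers, 3 (TIE1, VWF and TEK) were higher without overlap in hepatic than in monoculture libraries. Only 1, KDR, was lower, at 1.07 to 1.61 CPM in hepatic against 2.21 to 4.02 CPM in monoculture libraries. Of the 12 fibroblast markers, 3 were higher and 2 lower without overlap. The higher ones were the collagens COL1A1, COL1A2 and COL3A1, with COL1A1 at 6.62 to 12.5 CPM in hepatic against 5.36 to 6.33 CPM in monoculture libraries. The lower ones were FBLN1 and DCN. FBLN1 was 0.67 to 0.99 CPM in hepatic, 2.75 to 5.95 CPM in cardiac and 5.03 to 7.41 CPM in monoculture libraries. In cardiac against monoculture libraries TIE1 alone of these 2 lists had no overlap. By the fit, which is another criterion, 28.0% of all genes passed in hepatic and 8.26% in cardiac co-culture against monoculture. The share of all genes without overlap was not computed, so how usual these marker counts are is not known. The part of other cells in the results that follow was not tested.

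DHRS3 differed most from monoculture in both co-cultures, RDH10 and CRABP2 were higher beside hepatic tissue, TGM2 was highest beside cardiac tissue, and RXRA was lower beside hepatic tissue. RARA was higher on average in both co-cultures, though its cardiac and monoculture libraries overlapped. RARG showed no difference that passed, RARB was too imprecise to tell, and RARRES1 was not fitted. Of the 9 members fitted, 6 passed in hepatic co-culture against monoculture, 5 higher and 1 lower, where 28.0% of all genes passed. In cardiac co-culture against monoculture 3 passed, all higher, where 8.26% of all genes passed, and 5 passed without cardiac replicate 4, where 19.1% of the 17726 genes of that fit passed. In cardiac against hepatic co-culture 4 passed, 2 higher and 2 lower, where 6.18% of all genes passed. The genes were selected on these contrasts, so nothing is read from those shares, and whether a member passed, in this or any alternative fit, is description and no support. The median log2 fold change of the members was 0.63, 0.49 and -0.13 in the same 3 comparisons, beside 0.015, 0.0063 and -0.0034 over all genes. The co-culture comparisons share the monoculture libraries and are not independent of each other. As these are whole-tissue libraries, fewer cells with a transcript and less of it per cell cannot be told apart.

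**Figure D1:**
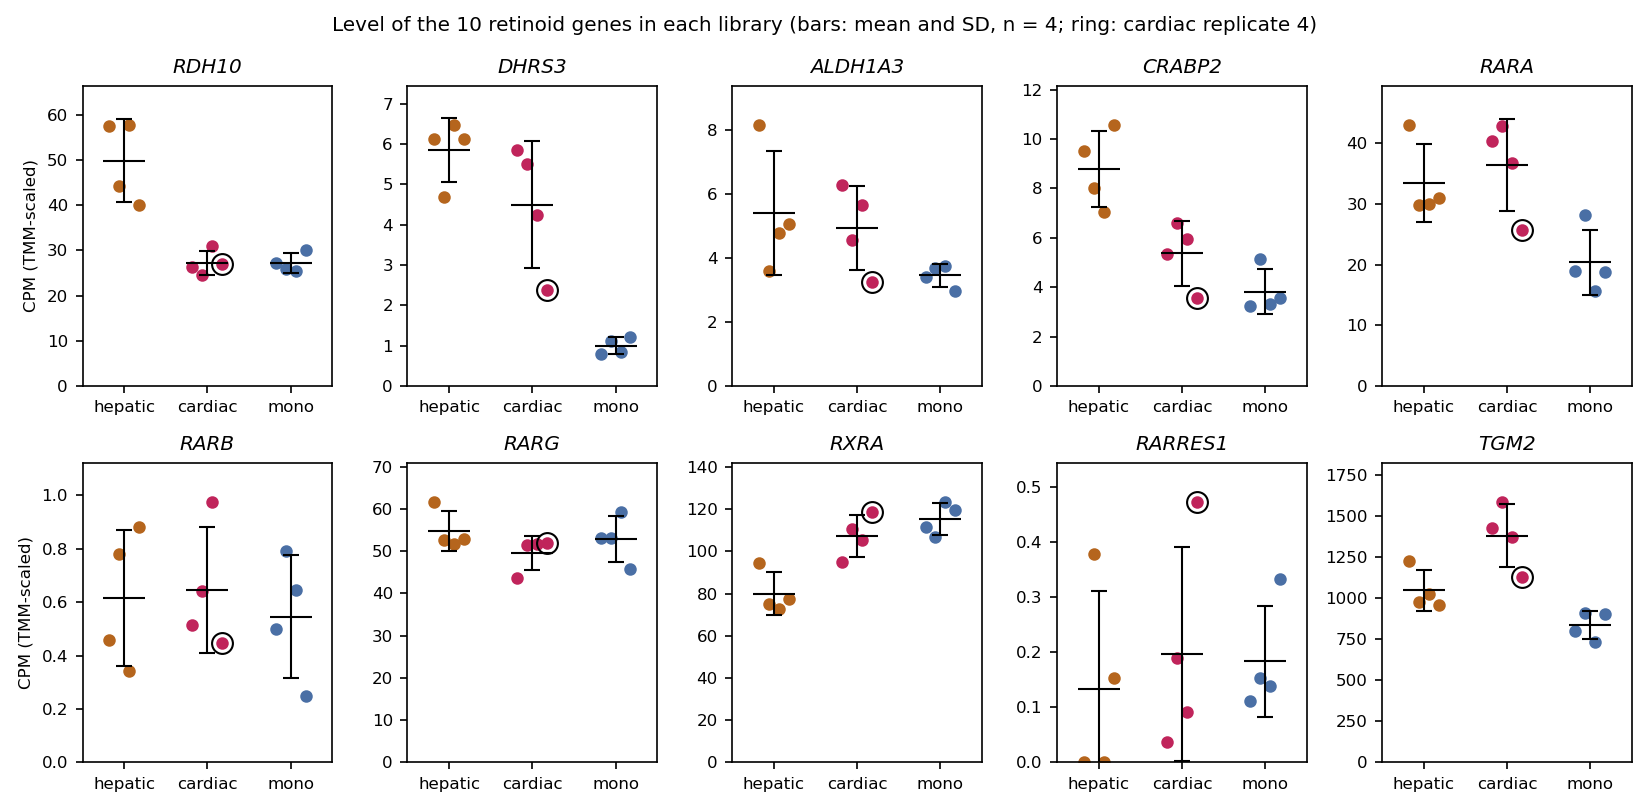
Each panel plots 1 gene, with its TMM-scaled CPM in each library on the vertical axis (linear, from 0, scaled per gene) and the hepatic, cardiac and monoculture groups from left to right; horizontal bars are the mean and whiskers the SD (n = 4), and a ring marks cardiac replicate 4. DHRS3 separates both co-cultures from monoculture, RDH10 and CRABP2 are high in the hepatic libraries, RXRA is low there, and the ringed library is the lowest cardiac one for DHRS3, ALDH1A3, CRABP2, RARA, RARB and TGM2.

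RDH10 (ENSG00000121039, chromosome 8, 73294612 to 73325281, GRCh38, plus strand), the retinol dehydrogenase that makes retinaldehyde, had 57.6, 44.2, 57.7 and 40.0 CPM in the 4 hepatic libraries, 26.4, 24.6, 30.9 and 26.9 CPM in the cardiac libraries, and 27.3, 25.9, 25.3 and 30.2 CPM in monoculture. Every hepatic library lay above every cardiac and every monoculture library, while cardiac and monoculture libraries were interleaved. Its log2 fold change was 0.88 ± 0.11 in hepatic co-culture over monoculture and 0.00 ± 0.11 in cardiac co-culture over monoculture (0.01 without cardiac replicate 4), and -0.87 ± 0.11 in cardiac over hepatic co-culture (-0.86 without that library). Over 18 alternative fits the hepatic value over monoculture was 0.80 to 0.97. The antisense gene RDH10-AS1, which overlaps 278 bases of RDH10 exons, averaged 0.57 CPM in hepatic, 0.19 CPM in cardiac and 0.087 CPM in monoculture libraries. Whether reads were counted by strand is not given in the sources used here, so reads of that overlap cannot be assigned.

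DHRS3 (ENSG00000162496, chromosome 1, 12567910 to 12617731, minus strand), the retinaldehyde reductase that works against RDH10, had 6.14, 4.68, 6.47 and 6.12 CPM in hepatic, 5.86, 5.52, 4.24 and 2.37 CPM in cardiac, and 0.80, 1.12, 0.85 and 1.22 CPM in monoculture libraries. All 8 co-culture libraries exceeded all 4 monoculture libraries, and cardiac replicate 4 was the lowest of the 8. These values rest on 160 to 198 counts per hepatic library, 90 to 160 per cardiac library and 29 to 44 per monoculture library. The log2 fold change was 2.54 ± 0.26 in hepatic co-culture over monoculture and 2.16 ± 0.26 in cardiac co-culture over monoculture, or 2.38 without cardiac replicate 4. Cardiac and hepatic libraries overlapped, with a difference of -0.38 ± 0.24 that did not pass and of -0.16 without that library.

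The ratio of these opposed enzymes differed between the groups. Per kilobase of exon, RDH10 was 5.35, 5.39, 5.09 and 3.73 times the level of DHRS3 in hepatic libraries, 2.56, 2.54, 4.16 and 6.48 times in cardiac libraries, and 19.4, 13.1, 16.9 and 14.1 times in monoculture libraries. The ratio averaged 4.89 ± 0.79 in hepatic, 3.94 ± 1.86 in cardiac and 15.9 ± 2.84 in monoculture libraries (SD, n = 4 each). The ratio was lower in every co-culture library than in any monoculture library. In cardiac co-culture RDH10 averaged the same as in monoculture and DHRS3 was higher. In hepatic co-culture both were higher, DHRS3 by the larger factor.

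ALDH1A3 (ENSG00000184254, chromosome 15, 100877714 to 100916626, plus strand), which oxidises retinaldehyde to retinoic acid, had 8.15, 3.59, 4.80 and 5.05 CPM in hepatic, 6.27, 4.57, 5.65 and 3.26 CPM in cardiac, and 3.40, 3.70, 3.76 and 2.97 CPM in monoculture libraries. The groups overlapped, through hepatic replicate 2 and cardiac replicate 4. The log2 fold changes, 0.63 ± 0.24 in hepatic and 0.51 ± 0.24 in cardiac co-culture over monoculture, did not pass. The hepatic value passed in DESeq2 (0.63), with upper-quartile scaling (0.67), with no filter (0.63), in a fit of these groups alone (0.64), without hepatic replicate 2 (0.79) and without cardiac replicate 4 (0.63), and the cardiac value passed without cardiac replicate 4 (0.67).

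CRABP2 (ENSG00000143320, chromosome 1, 156699606 to 156705816, minus strand), the carrier of retinoic acid to its receptors, had 9.49, 8.03, 7.06 and 10.6 CPM in hepatic, 5.35, 6.61, 5.95 and 3.55 CPM in cardiac, and 3.24, 5.16, 3.32 and 3.55 CPM in monoculture libraries. The hepatic libraries were all above the other 8, and the cardiac libraries lay between, with replicate 4 at the level of monoculture. Hepatic over monoculture the log2 fold change was 1.20 ± 0.20, and 1.10 to 1.37 over 18 alternative fits. Cardiac over monoculture it was 0.49 ± 0.21 and did not pass, but was 0.64 and passed without cardiac replicate 4. Cardiac over hepatic it was -0.71 ± 0.20 and passed, but not without cardiac replicate 1 (-0.71), 3 (-0.76) or 4 (-0.55), hepatic replicate 1 (-0.67), 2 (-0.76) or 4 (-0.61), or monoculture replicate 4 (-0.71), nor with replicate number as a block (-0.73) or in a fit of these groups alone (-0.71).

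**Figure D2:**
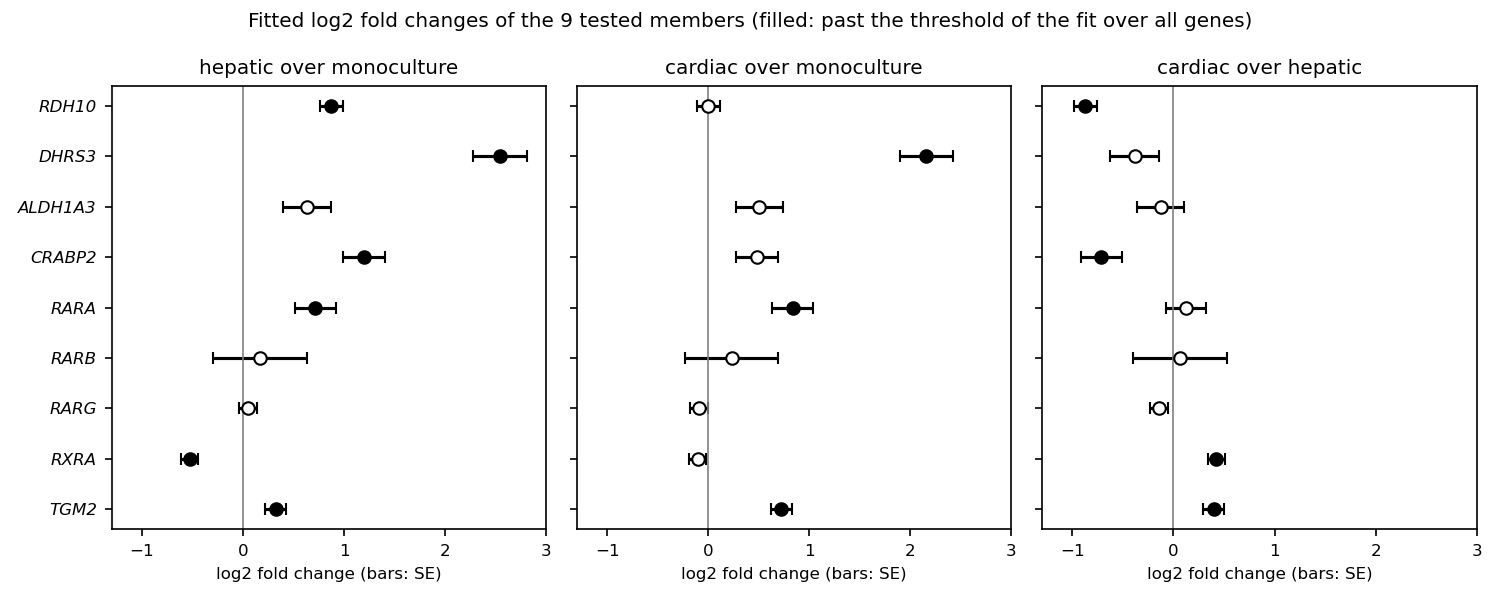
Log2 fold changes (horizontal axis, the same scale in each panel) of the 9 fitted members in hepatic co-culture over monoculture, cardiac co-culture over monoculture and cardiac over hepatic co-culture; points are fitted values, whiskers the SE, and filled points passed at an adjusted p under 0.05 over all genes, which is description since the genes were chosen with these values known. DHRS3 has the highest value in both comparisons with monoculture (2.54 and 2.16), RDH10 and CRABP2 lie to the left in the cardiac over hepatic panel (-0.87 and -0.71), and RXRA and TGM2 to the right (0.43 and 0.40).

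RARA (ENSG00000131759, chromosome 17, 40309192 to 40357643, plus strand), the retinoic acid receptor alpha, had 43.0, 29.9, 30.0 and 31.0 CPM in hepatic, 40.5, 42.9, 36.8 and 25.7 CPM in cardiac, and 19.0, 28.1, 15.6 and 18.7 CPM in monoculture libraries. Hepatic and monoculture libraries did not overlap, and cardiac and monoculture libraries overlapped through cardiac replicate 4 and monoculture replicate 2. The log2 fold change was 0.72 ± 0.20 in hepatic co-culture over monoculture, and it no longer passed without hepatic replicate 1 (0.57) or monoculture replicate 1 (0.68), 3 (0.60) or 4 (0.67). In cardiac co-culture over monoculture it was 0.84 ± 0.20 and no longer passed without cardiac replicate 1 (0.78), 2 (0.75) or 3 (0.83) or monoculture replicate 1 (0.80), 3 (0.73) or 4 (0.80). Without cardiac replicate 4 it was 0.975. In cardiac over hepatic co-culture it was 0.12 ± 0.20, or 0.27 without that library, and passed in neither fit.

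RARG (ENSG00000172819, chromosome 12, 53210567 to 53232980, minus strand), the receptor gamma, had 61.7, 52.7, 51.8 and 52.8 CPM in hepatic, 43.5, 51.5, 51.6 and 51.9 CPM in cardiac, and 53.0, 53.2, 59.3 and 45.8 CPM in monoculture libraries. The groups overlapped, and log2 fold changes were 0.05 ± 0.09 in hepatic and -0.09 ± 0.09 in cardiac co-culture over monoculture (-0.11 without cardiac replicate 4). RARB (ENSG00000077092, chromosome 3, 25174332 to 25597932, plus strand), the receptor beta, whose promoter carries the repeat printed above, had 0.34 to 0.88 CPM in hepatic, 0.45 to 0.98 CPM in cardiac and 0.25 to 0.79 CPM in monoculture libraries. With 9 to 33 counts per library its fold changes of 0.17 ± 0.46 in hepatic and 0.23 ± 0.46 in cardiac co-culture over monoculture (0.38 without cardiac replicate 4) were too imprecise to show a difference of that size.

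Of the 3 RAR genes, per kilobase of exon, RARA made up 39.3 ± 2.38% in hepatic, 43.6 ± 6.60% in cardiac and 29.0 ± 5.83% in monoculture libraries, and RARG 59.8 ± 2.15%, 55.4 ± 6.61% and 70.0 ± 5.86%. RARB made up about 1 part in 100 in each group, at 0.95 ± 0.44%, 0.99 ± 0.32% and 0.98 ± 0.34%. The hepatic libraries (37.6 to 42.8% RARA) lay above all monoculture libraries (22.0 to 36.0%), and the cardiac range (34.6 to 49.8%) overlapped both.

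RXRA (ENSG00000186350, chromosome 9, 134317098 to 134440585, plus strand), a shared partner of the RAR receptors, had 94.7, 75.1, 72.7 and 77.7 CPM in hepatic, 95.1, 111, 105 and 119 CPM in cardiac, and 112, 107, 124 and 120 CPM in monoculture libraries. Every hepatic library was below every other library, with hepatic replicate 1 just under cardiac replicate 1. The log2 fold change was -0.53 ± 0.09 in hepatic and -0.10 ± 0.09 in cardiac co-culture over monoculture, and 0.43 ± 0.09 in cardiac over hepatic co-culture. Over 18 alternative fits the first was -0.62 to -0.49 and the last 0.38 to 0.52, and without cardiac replicate 4 the comparisons with cardiac libraries gave -0.15 and 0.38. Its paralog RXRB rose in hepatic co-culture, to 112 ± 9.28 CPM in hepatic against 97.5 ± 3.08 CPM in monoculture libraries (log2 fold change 0.21 ± 0.06, adjusted p = 0.023 by edgeR). Cardiac libraries had 107 ± 1.75 CPM of RXRB. They too lay above all monoculture libraries (104.9 to 109.0 against 93.6 to 100.8 CPM), but that difference did not pass. Of the summed RXRA and RXRB level per kilobase, RXRA was 20.1 ± 1.09% in hepatic, 26.2 ± 2.09% in cardiac and 29.5 ± 1.92% in monoculture libraries, and RXRG had no count in any library.

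**Figure D3:**
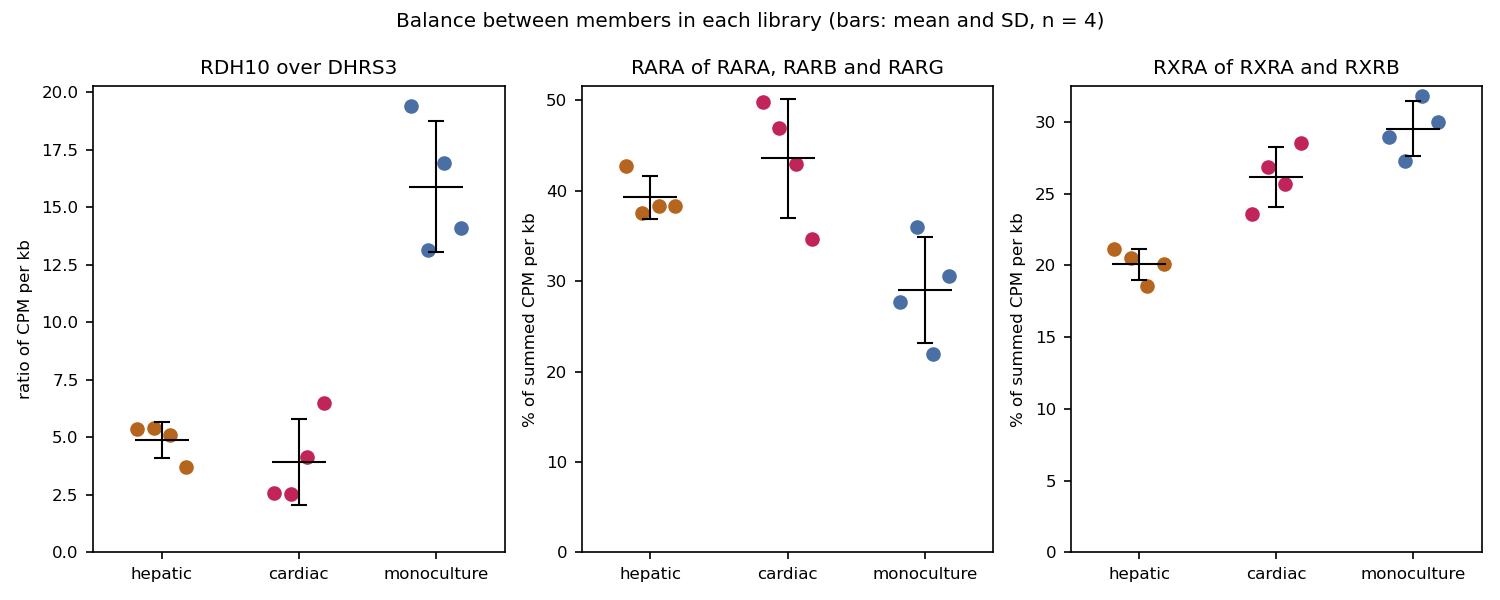
The vertical axes give, per library and from levels per kilobase of exon, RDH10 over DHRS3 (left), RARA as a percentage of RARA, RARB and RARG (middle) and RXRA as a percentage of RXRA and RXRB (right), for hepatic, cardiac and monoculture libraries; bars and whiskers are the mean and SD (n = 4). The RDH10 to DHRS3 ratio is 2.54 to 6.48 in co-culture and 13.1 to 19.4 in monoculture libraries, and the RXRA share is 18.6 to 21.1% in hepatic libraries, below the other groups.

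TGM2 (ENSG00000198959, chromosome 20, 38127387 to 38166578, minus strand), a transglutaminase that crosslinks proteins and is induced by retinoic acid in many cells, had 1229, 977, 1027 and 959 CPM in hepatic, 1431, 1589, 1375 and 1131 CPM in cardiac, and 802, 912, 734 and 901 CPM in monoculture libraries. All co-culture libraries were above all monoculture libraries, and cardiac replicate 4 was below hepatic replicate 1. In cardiac co-culture over monoculture the log2 fold change was 0.72 ± 0.10, or 0.81 without cardiac replicate 4, and 0.65 to 0.81 over 18 alternative fits. In hepatic co-culture over monoculture it was 0.32 ± 0.10, which did not pass without hepatic replicate 1 (0.24) or 3 (0.33) or monoculture replicate 1 (0.30) or 3 (0.26). Cardiac over hepatic it was 0.40 ± 0.10, or 0.49 without cardiac replicate 4. It did not pass without cardiac replicate 1 (0.39), 2 (0.33) or 3 (0.41) or hepatic replicate 2 (0.37), 3 (0.39) or 4 (0.36). The opposite-strand gene RPRD1B overlaps 394 bases of TGM2 exons and averaged 131 CPM in hepatic, 145 CPM in cardiac and 144 CPM in monoculture libraries.

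RARRES1 (ENSG00000118849, chromosome 3, 158696892 to 158732696, minus strand), a membrane protein gene named for its induction by retinoids, had 0, 16, 0 and 4 counts in hepatic, 1, 5, 3 and 18 counts in cardiac, and 4, 6, 6 and 12 counts in monoculture libraries. The groups overlapped and the gene was not fitted. Its exons share 331 bases with MFSD1 on the other strand, which had 1930 or more counts in every library.

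Levels between genes were compared per kilobase of exon. TGM2 was far above the rest, at 130 ± 15.5 CPM per kilobase in hepatic, 172 ± 23.6 in cardiac and 104 ± 10.6 in monoculture libraries. In hepatic libraries it was followed by RARG (10.7 ± 0.91), RDH10 (9.37 ± 1.72), CRABP2 (7.99 ± 1.41), RXRA (7.22 ± 0.90) and RARA (7.07 ± 1.35), each within 1 SD of its neighbour, and then by DHRS3 (1.93 ± 0.26) and ALDH1A3 (0.94 ± 0.34). In cardiac libraries RXRA (9.69 ± 0.89), RARG (9.68 ± 0.79) and RARA (7.70 ± 1.61) came next, and RDH10 (5.11 ± 0.50) and CRABP2 (4.88 ± 1.19) below them overlapped, as did DHRS3 (1.48 ± 0.52) and ALDH1A3 (0.86 ± 0.23). In monoculture libraries RXRA (10.4 ± 0.69) and RARG (10.3 ± 1.07) were alike within their spread, as were RDH10 (5.11 ± 0.41), RARA (4.31 ± 1.14) and CRABP2 (3.47 ± 0.82) from neighbour to neighbour, and ALDH1A3 (0.60 ± 0.06) was above DHRS3 (0.33 ± 0.07). By their means on this scale, DHRS3 stood above ALDH1A3 in both co-cultures and below it in monoculture, and RARB and RARRES1 were the lowest 2 members in each group.

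Of 72 other retinoid pathway genes, 47 entered the fit, and 12 of the remaining 25 had no count in any library. In hepatic co-culture against monoculture 18 of the 47 passed (38.3%, where 28.0% of all genes passed), 11 higher and 7 lower, with a median log2 fold change of 0.12 beside 0.015 over all genes. In cardiac co-culture against monoculture 2 passed (4.26%, where 8.26% of all genes passed), and the median was 0.17 beside 0.0063. Without cardiac replicate 4 it was 12, where 19.1% of all genes of that fit passed. Among them ALDH1A2, GPRC5A and IGFBP6 were higher, and FABP5 and CYP26B1 lower. In cardiac against hepatic co-culture 5 passed (10.6%, where 6.18% of all genes passed), 3 higher and 2 lower, with a median of 0.003 beside -0.0034. The adjusted p-values given for pathway genes are from edgeR's quasi-likelihood test over all genes. This list too was chosen with earlier results of these data known, so they are description.

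Of genes for uptake and binding, RBP4 and CRABP1, binding proteins for retinol and for retinoic acid, had no count in any library. STRA6, the receptor for retinol-binding protein, averaged 0.78 ± 0.27 CPM in hepatic, 1.36 ± 0.88 CPM in cardiac and 1.38 ± 0.56 CPM in monoculture libraries, and no comparison of it passed. FABP5, a carrier of fatty acids that also binds retinoic acid, fell in cardiac against hepatic co-culture, with 29.7 ± 5.01 CPM in cardiac and 39.1 ± 3.50 CPM in hepatic libraries (log2 fold change -0.40 ± 0.11, adjusted p = 0.030 by edgeR). With 1 library left out it did not pass in 5 of the 12 fits, those without cardiac replicate 2 (-0.30) or 3 (-0.35) or hepatic replicate 2 (-0.37), 3 (-0.41) or 4 (-0.35), nor in a fit of these groups alone (-0.40). Without cardiac replicate 4 it was -0.49.

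Of the 9 fitted oxidoreductases of retinol and retinaldehyde, 2 fell in hepatic co-culture against monoculture (22.2%, where 28.0% of all genes passed). They were RDH14 and AKR1C3, an aldo-keto reductase that can reduce retinaldehyde. AKR1C3 averaged 25.4 ± 5.21 CPM in hepatic, 28.3 ± 4.04 CPM in cardiac and 54.3 ± 26.3 CPM in monoculture libraries. Every library of both co-cultures was below every monoculture library, and the log2 fold change was -1.10 ± 0.30 in hepatic and -0.94 ± 0.30 in cardiac co-culture (-1.04 without cardiac replicate 4). For RDH14 it was -0.35 ± 0.12 in hepatic and -0.33 ± 0.12 in cardiac co-culture (-0.35 without that library). The cardiac values are close to the hepatic ones in size and did not pass.

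Of the genes for synthesis and breakdown of retinoic acid, ALDH1A2, a second retinaldehyde dehydrogenase, had 2.68, 1.35, 1.71 and 1.22 CPM in hepatic, 1.36, 1.81, 1.34 and 1.16 CPM in cardiac, and 0.66, 0.82, 0.81 and 0.81 CPM in monoculture libraries. Both co-cultures lay above all monoculture libraries. The hepatic difference passed (log2 fold change 1.16 ± 0.31, adjusted p = 0.0085 by edgeR), and the cardiac one of 0.86 ± 0.31 did not, except without cardiac replicate 4 (0.95). ALDH1A1, the third such enzyme, had at most 2 counts in any library.

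CYP26B1, which breaks retinoic acid down, had 32.5, 32.2, 29.9 and 32.8 CPM in hepatic, 37.0, 33.3, 35.3 and 42.7 CPM in cardiac, and 40.7, 40.0, 51.1 and 40.9 CPM in monoculture libraries. Hepatic libraries were the lowest, below all libraries of the other groups. The fall in hepatic co-culture against monoculture was -0.44 ± 0.09 on the log2 scale (adjusted p = 0.0021 by edgeR). In cardiac co-culture it was -0.22 ± 0.09, which did not pass, or -0.29, which did, without cardiac replicate 4. CYP26A1, the paralog most often used as a readout of retinoic acid, had 0 to 8 counts per library.

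Of the 10 fitted receptors and coregulators, 3 rose and 2 fell in hepatic co-culture against monoculture (50.0%, where 28.0% of all genes passed). NCOA3, a coactivator of nuclear receptors, had 74.3, 76.8, 71.7 and 69.0 CPM in hepatic, 104, 117, 103 and 95.1 CPM in cardiac, and 105, 108, 122 and 112 CPM in monoculture libraries, and hepatic libraries were all below the other 8. It fell by 0.62 on the log2 scale in hepatic co-culture against monoculture (SE 0.07, adjusted p = 1.2e-05 by edgeR) and was 0.52 ± 0.07 higher in cardiac than in hepatic co-culture (adjusted p = 0.00014 by edgeR; 0.57 without cardiac replicate 4), without losing either in any fit that left 1 library out. NCOR1, the corepressor that RARs bind without ligand, fell in hepatic co-culture as well, with 159 ± 10.4 CPM in hepatic, 186 ± 10.8 CPM in cardiac and 202 ± 5.73 CPM in monoculture libraries (log2 fold change -0.34 ± 0.06, adjusted p = 0.00088 by edgeR). Its difference between cardiac and hepatic co-culture, 0.22 ± 0.06 with an adjusted p of 0.045 by edgeR, was lost without any 1 library except cardiac replicate 1, at 0.18 to 0.25 (0.19 without cardiac replicate 4), and also with no filter (0.23), with the replicate block (0.22) and in a fit of these groups alone (0.23). The orphan receptor NR2F1, itself a known retinoic acid target, rose to 124 ± 29.0 CPM in hepatic, against 49.7 ± 10.6 CPM in monoculture libraries (log2 fold change 1.32 ± 0.30, adjusted p = 0.0098 by edgeR), and had 86.9 ± 32.5 CPM in cardiac libraries, where its fold change of 0.80 ± 0.30 did not pass, except without cardiac replicate 4 (1.01). PPARD, a nuclear receptor that FABP5 can supply with retinoic acid, was the other one that rose in hepatic co-culture, by 0.23 ± 0.07. Its cardiac libraries (73.8 to 84.7 CPM) also lay above all monoculture libraries (66.9 to 71.0 CPM), a difference that did not pass.

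**Figure D4:**
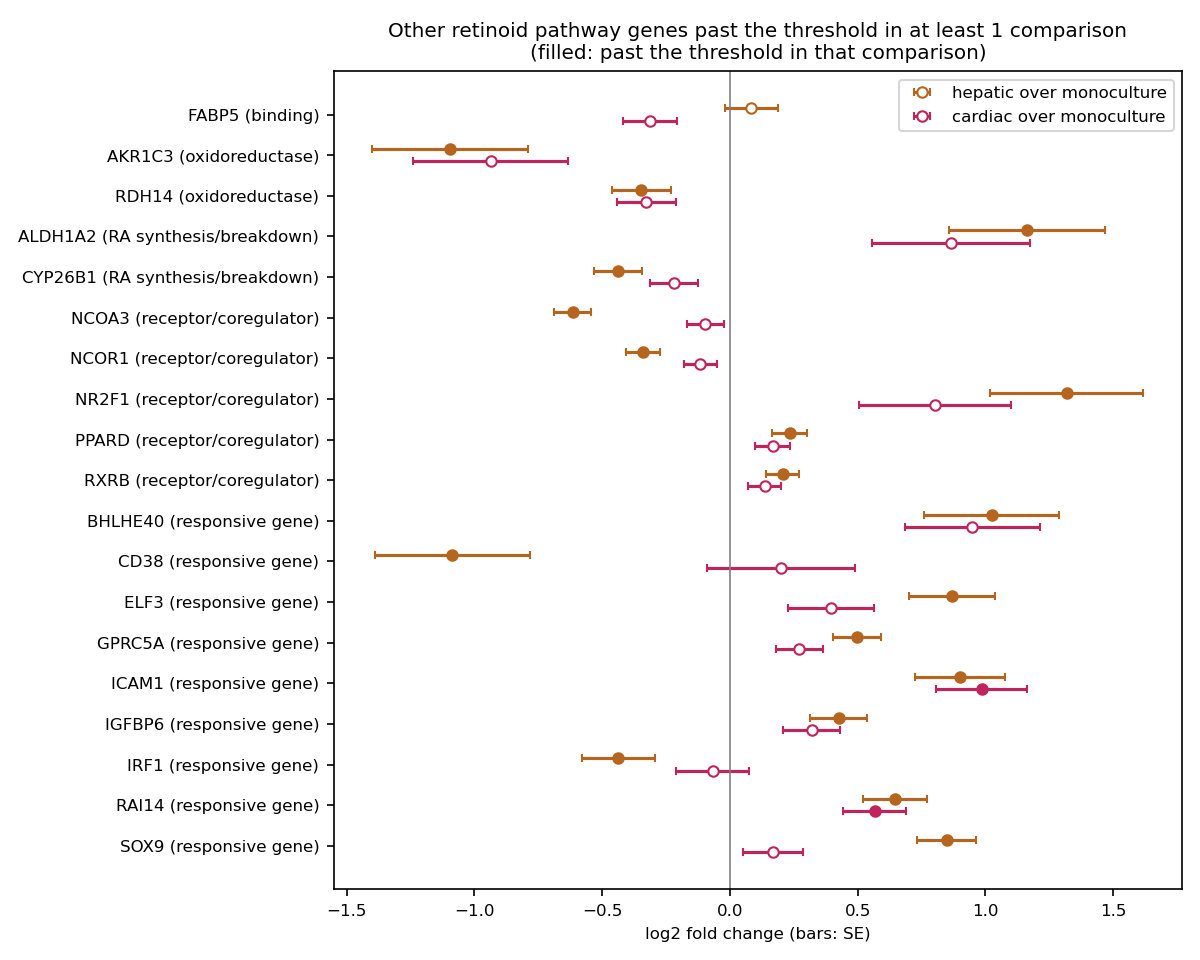
Log2 fold changes with SE (horizontal axis) of the 19 other pathway genes that passed in at least 1 of the 3 comparisons, in hepatic (upper point) and cardiac (lower point) co-culture over monoculture, with the class of each gene in brackets; filled points passed in that comparison. RAI14 and ICAM1 are filled in both, and FABP5 passed in cardiac against hepatic co-culture alone.

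Of the 19 fitted genes known to respond to retinoic acid in other cells, 7 rose and 2 fell in hepatic co-culture against monoculture. That is 47.4%, where 28.0% of all genes passed. In cardiac co-culture against monoculture 2 rose (10.5%, where 8.26% of all genes passed). SOX9, a transcription factor, had 242, 163, 181 and 172 CPM in hepatic, 124, 121, 123 and 105 CPM in cardiac, and 110, 118, 86.9 and 106 CPM in monoculture libraries. The hepatic libraries stood above all others, with a log2 fold change of 0.85 ± 0.12 over monoculture (adjusted p = 0.00012) and of -0.68 ± 0.12 in cardiac over hepatic co-culture (adjusted p = 0.0021, both by edgeR), or -0.62 without cardiac replicate 4. ICAM1, an adhesion molecule, had 65.6, 58.5, 59.9 and 55.1 CPM in hepatic, 62.3, 82.4, 61.0 and 48.2 CPM in cardiac, and 24.0, 40.0, 27.2 and 36.9 CPM in monoculture libraries. It rose in both co-cultures, by 0.90 ± 0.18 in hepatic (adjusted p = 0.0030) and 0.98 ± 0.18 in cardiac co-culture over monoculture (adjusted p = 0.011, both by edgeR), or 1.10 without cardiac replicate 4. RAI14, a cytoskeletal ankyrin-repeat protein, rose by 0.65 ± 0.12 in hepatic (adjusted p = 0.0018) and 0.57 ± 0.12 in cardiac co-culture (adjusted p = 0.017, both by edgeR). The cardiac value did not pass without cardiac replicate 1 (0.53), 2 (0.51) or 3 (0.54) or monoculture replicate 3 (0.49) or 4 (0.53), and was 0.68 without cardiac replicate 4.

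The other responsive genes that rose in hepatic co-culture were ELF3, an epithelial ETS factor (0.87 ± 0.17), GPRC5A, an orphan receptor (0.50 ± 0.09), IGFBP6, which binds insulin-like growth factors (0.43 ± 0.11), and BHLHE40, a repressor (1.03 ± 0.26). BHLHE40 was 0.95 ± 0.26 in cardiac co-culture over monoculture, which did not pass, except without cardiac replicate 4 (1.11). CD38, an ectoenzyme that retinoic acid induces in myeloid cells, had 1.31, 1.63, 2.64 and 1.26 CPM in hepatic, 5.68, 3.66, 3.69 and 3.74 CPM in cardiac, and 1.66, 3.8, 4.66 and 4.41 CPM in monoculture libraries. It fell in hepatic co-culture against monoculture (-1.09 ± 0.30, adjusted p = 0.012 by edgeR) and was higher in cardiac than in hepatic co-culture (1.29 ± 0.31, adjusted p = 0.015 by edgeR), a difference that did not pass without hepatic replicate 4 (1.175) and was 1.35 without cardiac replicate 4. IRF1, an interferon regulatory factor, was the other gene of the class that fell in hepatic co-culture (-0.44 ± 0.14).

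Among 11623 protein-coding genes with a mean log2 CPM above 1, those whose log2 CPM followed DHRS3 most closely over the 12 libraries were CLDN7, a tight junction claudin (Pearson r = 0.983), G0S2 (0.971), GSTM2 (0.970), PDIA5 (0.970) and MMP11 (0.965). CLDN7 averaged 22.8 ± 1.95 CPM in hepatic, 19.2 ± 3.61 CPM in cardiac and 10.4 ± 1.5 CPM in monoculture libraries, and G0S2, an inhibitor of fat breakdown, 49.3 ± 4.41, 32.4 ± 9.79 and 14.3 ± 1.90 CPM. For TGM2 the closest were C1RL (0.973), RTN4RL2 (0.969), TGFBI (0.967), MKNK2 (0.959) and PXDN (0.958). TGFBI, a matrix protein that is also on the MDA-MB-231 marker list, averaged 73.9 ± 26.8 CPM in hepatic, 124 ± 49.6 CPM in cardiac and 32.9 ± 12.5 CPM in monoculture libraries, and PXDN, a matrix peroxidase, 479 ± 66.7, 597 ± 77.8 and 418 ± 44.1 CPM. None of these is a retinoid gene of the lists used here. The points share libraries and group differences, so r describes these 12 libraries. With 1 library left out, 1 to 4 of the 5 genes stayed among the closest 5 to DHRS3 and 2 to 4 for TGM2.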

How the data were processed

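The authors deposited read counts for each Ensembl gene, 1 column per library, with no normalization. Per the submitters' processing notes, HISAT2 2.2.1, featureCounts 2.0.6, DESeq2 1.42.0 and GRCh38 were used. Not given in the sources used here: annotation release, strand setting and treatment of multi-mapped reads. The labels' protocols describe kits with and without strand, so opposite-strand overlaps cannot be resolved.

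Symbols, coordinates and exon lengths came from GENCODE 29 (GRCh38), which held 58735 of 58735 gene IDs. Groups were taken from the sample titles. Genes passing filterByExpr (17468, with 99.93% of counts) were fitted with edgeR 4.0.16 in R 4.3.3: TMM scaling, robust quasi-likelihood, group as the factor, no replicate block, two-sided, Benjamini-Hochberg over all of them, threshold 0.05. The common biological coefficient of variation was 14.9%. SE is the log2 fold change divided by the root of F. Replicate correlations used log2 CPM with a prior count of 2. Replicates differed by more than sampling noise (chi-square per degree of freedom of at least 8.68), so none was merged.

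The members and gene lists were chosen with earlier results of these data known. Named were the 10 members, 7 pathway genes whatever they did (1 is not reported here), the pathway genes passing in a comparison (at most 12 by adjusted p), and the 5 genes most like DHRS3 and like TGM2. BHLHE40, RDH14, AKR1C3, IRF1, PPARD, RXRB and the markers TIE1, VWF, TEK, KDR, COL1A1, COL1A2, COL3A1, FBLN1 and DCN were named after their values were seen. Alternatives were DESeq2 1.42.0, other scalings, no filter, 2 groups, a replicate block and leaving out each library.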

Additional observations from a re-analysis of the deposited data

Results flagged for a closer look

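In 9 of the 72 groups of 4 libraries that were examined (named genes with at least 10 counts in a library, by condition), 1 library lay far from the other 3, which chance alone gives in about 1 group in 20. RARA was 43.0 CPM in hepatic replicate 1, with the others at 29.9 to 31.0 CPM. RARG was 61.7 CPM in hepatic replicate 1 (others 51.8 to 52.8 CPM) and 43.5 CPM in cardiac replicate 1 (others 51.5 to 51.9 CPM). CRABP2 was 5.16 CPM in monoculture replicate 2 (others 3.24 to 3.55 CPM). Among pathway genes, CYP26B1 was 51.1 CPM in monoculture replicate 3 (others 40.0 to 40.9 CPM), ALDH1A2 was 0.664 CPM in monoculture replicate 1 (others 0.805 to 0.817 CPM), and SOX9 was 105.0 CPM in cardiac replicate 4 (others 121 to 124 CPM). CD38 was 5.68 CPM in cardiac replicate 1 (others 3.66 to 3.74 CPM), and FABP5 was 40.3 CPM in monoculture replicate 3 (others 35.6 to 36.1 CPM).

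The fitted cardiac over hepatic contrast passed for 4 members and 5 pathway genes, where 6.18% of all genes passed. The members were chosen with these values known, so their count is description. With 1 library left out, RDH10, RXRA, NCOA3 and SOX9 passed in 12 of 12 fits. CD38 passed in 11, FABP5 in 7, TGM2 in 6, CRABP2 in 5 and NCOR1 in 1 of them. Members were TGM2 (0.40 on the log2 scale, from effects over monoculture of 0.72 in cardiac and 0.32 in hepatic co-culture), CRABP2 (-0.71, from 0.49 and 1.20), RXRA (0.43, from -0.10 and -0.53) and RDH10 (-0.87, from 0.00 and 0.88). Pathway genes were NCOA3 (0.52, from -0.10 in cardiac and -0.62 in hepatic co-culture), SOX9 (-0.68, from 0.17 and 0.85), NCOR1 (0.22, from -0.12 and -0.34), CD38 (1.29, from 0.20 and -1.09) and FABP5 (-0.40, from -0.31 and 0.08).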

How the results depend on the processing

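Of 954 alternative values of single genes, 889 kept their direction and their side of the threshold, 55 no longer passed, 10 newly passed and 0 reversed among values that passed. For cardiac co-culture against monoculture, where 1443 genes passed, DESeq2 gave 2251 and no filter 2219, and leaving out 1 library gave 263 (without cardiac replicate 2) to 3378 (without cardiac replicate 4). Upper-quartile scaling turned its split of 862 higher and 581 lower genes into 1076 and 414. The 2 pathway genes of that comparison became 8 with DESeq2, 6 with no filter, 4 with the replicate block and 1 to 12 with 1 library left out, and its 3 members 2 to 5. In cardiac against hepatic co-culture the 1080 genes became 676 to 1269 with 1 library left out, the 4 members 2 to 4, and the 5 pathway genes 2 to 6, or 3 with the 2 groups alone. The causes were not tested. With replicate number as a block, 4660 genes passed in hepatic co-culture, 1310 in cardiac co-culture (each against monoculture) and 891 in cardiac against hepatic co-culture. After removal of group means, same-numbered libraries correlated at -0.0816 to 0.113 and differently numbered ones at -0.172 to 0.110. These values show no pairing by number but cannot exclude it. Low counts limit DHRS3 in monoculture, RARB, RARRES1 and CYP26A1.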
